A study of Mus musculus with 4 samples.

Results

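The genes described here are 10 feedback and output genes of the RAS-MAPK pathway, chosen by name: the phosphatases Dusp4, Dusp5 and Dusp6, the Sprouty genes Spry1, Spry2 and Spry4, the SPRED genes Spred1 and Spred2, and the ETS factors Etv4 and Etv5. All probes whose accession belongs to these genes were taken, which gave 13 of the 56605 probes on the array and 10 of its 23787 named genes. Spry2, Spred1 and Spred2 had 2 probes each, and the other 7 genes had 1. RNA came from lung tumours of KP mice, a Cre-driven model of lung adenocarcinoma, on the C57BL/6J strain. The question was which genes differed with CD109 deficiency, and samples from CD109-/- KP mice were compared with samples from CD109+/+ KP mice. The CD109-/- samples (n = 2) were male in replicate 1 and female in replicate 2, and both CD109+/+ samples (n = 2) were female. In both genotypes an adenovirus brought Cre into the airways to start the tumours, 88 to 92 days before the RNA was extracted. The sources used here do not give the promoter driving Cre, the age of the mice or how CD109 was disrupted.

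The RAS-MAPK cascade runs from RAS proteins through the kinases RAF and MEK to the kinase ERK. Active ERK switches on transcription, and part of that output is a set of brakes. DUSP4 and DUSP5 remove phosphate from ERK in the nucleus and DUSP6 does so in the cytoplasm. Sprouty proteins restrain signalling downstream of growth factor receptors, and SPRED proteins bring the RAS inhibitor neurofibromin to the membrane. ETV4 and ETV5, factors of the PEA3 group of the ETS family, are transcriptional outputs of the pathway. In the developing mouse lung they respond to FGF signalling, and Etv5 is known for a role in maintaining alveolar type 2 cells. CD109, the gene disrupted in the CD109-/- mice, is a membrane-anchored glycoprotein that can bind the TGF-β receptor complex.

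Each sample was read on 1 single-colour Agilent array, with between 64.3% and 67.0% of spots well above background and 0 spots saturated. Values are log2 signals relative to each array's own 75th percentile of signal, differences are CD109-/- minus CD109+/+, and each carries its standard error from limma (SE, 2 arrays in each genotype). A probe's level depends on the probe as well as on the RNA, so levels are compared between samples and never between probes. The Cd109 probe gave -7.48 and -7.40 on the CD109-/- arrays, where it was not well above background, against -3.20 and -4.20 on the CD109+/+ arrays. Over all tested genes the arrays correlated with r of 0.961 to 0.979, and CD109-/- replicate 2 was closer to CD109+/+ replicate 2 (0.978) than to CD109-/- replicate 1 (0.961), the male sample. The CD109-/- samples differ in sex and so come from different animals. The CD109+/+ replicates are not stated to be separate animals, so p-values speak only of the spread among the 4 samples. Precision is limited by the number of arrays: an exact two-sided permutation test of 2 against 2 cannot give a p below 0.333.

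All 13 probes were well above background on all 4 arrays, so every gene was measured in both genotypes. No probe passed the threshold: 0 of 13 had an adjusted p under 0.05 in limma, against 0.0% of the 35776 probes tested, and the members' adjusted p ran between 0.753 and 0.998. Without adjustment 0 of 13 had a p under 0.05 in either direction, where 6.89% of all probes did so, 4.04% being higher in CD109-/- tumours and 2.85% lower. Differences ran between -0.61 (Etv4) and 0.30 (Etv5), and the values were lower in CD109-/- tumours for 11 of 13 probes and 8 of 10 genes. Of all probes 54.4% had a lower value in CD109-/- tumours, and of all genes 48.6%. The CD109-/- arrays both lay below both CD109+/+ arrays for 6 of 13 probes (46.2%), against 20.6% of all probes, and the opposite order held for 0 of 13, against 16.9%. By gene, with the brightest probe standing for each, this was 4 of 10 lower (40.0%) against 17.4% of 16444 genes, and 0 higher against 20.8%. At an unadjusted p under 0.05 in limma the gene counts were 0 of 10 higher and 0 of 10 lower, against 5.16% and 2.33% of all genes. These shares are a description, since the probes share arrays and some share a gene.

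**Figure D1:**
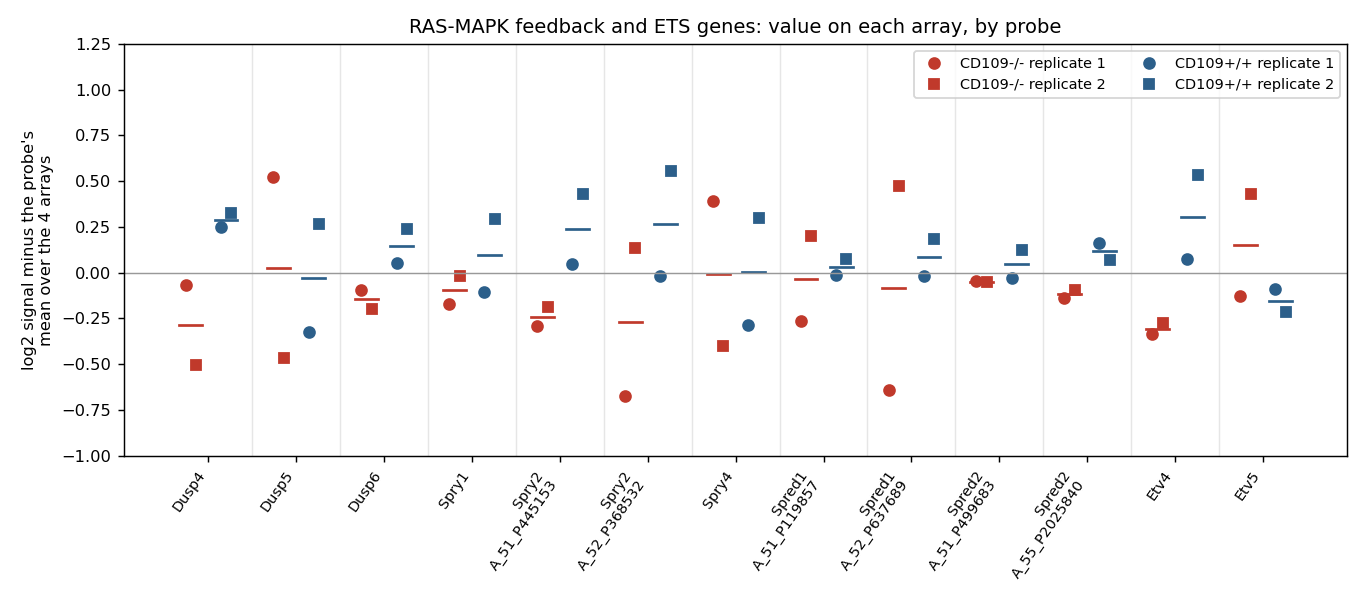
Log2 signal of the 13 probes on each array, minus the probe's mean over the 4 arrays; red marks CD109-/-, blue CD109+/+, circles replicate 1 and squares replicate 2, and short lines are genotype means (n = 2). Dusp4, Dusp6, Etv4, both Spred2 probes and Spry2 probe A_51_P445153 have both red points below both blue points, while the red points lie far apart for Dusp5, Spry4 and probe A_52_P637689 of Spred1.

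Among the phosphatases, the signals of Dusp4 and Dusp6 lay lower in CD109-/- tumours and those of Dusp5 overlapped. Dusp4, which dephosphorylates ERK in the nucleus, had 0.68 and 0.24 in CD109-/- tumours, against 0.99 and 1.07 in CD109+/+ tumours. The genotypes did not overlap, with a gap of 0.32 between the nearest arrays and a span of 0.44 between the CD109-/- arrays. Its difference was -0.57 ± 0.27 (95% interval -1.25 to 0.10, limma's adjusted p = 0.759), and -0.36 without CD109-/- replicate 2. Dusp6, the cytoplasmic phosphatase widely used as a readout of ERK activity, had 5.22 and 5.11 in CD109-/- tumours, against 5.37 and 5.55 in CD109+/+ tumours. Both CD109-/- values were lower, by a gap of 0.15. The difference of -0.29 ± 0.24 (95% interval -0.89 to 0.31) had an adjusted p of 0.851 in limma. Dusp5, the other nuclear phosphatase, had -3.00 and -3.99 in CD109-/- tumours, against -3.85 and -3.25 in CD109+/+ tumours. The CD109-/- arrays lay at both ends of the range, with the CD109+/+ arrays between them. The difference of 0.05 ± 0.43 came with an interval of -1.04 to 1.15, so a 2-fold difference of Dusp5 either way was within the limits of this measurement.

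ETS factors bind DNA at a GGAA core, which reads TTCC on the opposite strand, and serum response factor, a partner of the ETS factors of the ELK group, binds the CArG box. RefSeq promoter sequence of build GRCm38.p6 was at hand for 7 of the 10 genes (8 windows, as Etv5 has 2). It was searched on both strands over the 250 bases before the annotated start, and Dusp4, Spry4 and Etv4 were not matched. The windows of Dusp6 and Dusp5 are printed because these 2 phosphatases differ in the motifs found. Each runs 5′ to 3′ on the plus strand, Dusp6 at chr10:99262981-99263230 and Dusp5 at chr19:53528895-53529144, with GGAA, TTCC and CArG boxes in capitals.
Dusp6: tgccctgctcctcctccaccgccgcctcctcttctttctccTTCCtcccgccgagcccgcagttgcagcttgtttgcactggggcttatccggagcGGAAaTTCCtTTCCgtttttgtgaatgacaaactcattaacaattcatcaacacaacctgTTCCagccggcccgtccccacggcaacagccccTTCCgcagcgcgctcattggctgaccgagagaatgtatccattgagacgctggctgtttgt
Dusp5: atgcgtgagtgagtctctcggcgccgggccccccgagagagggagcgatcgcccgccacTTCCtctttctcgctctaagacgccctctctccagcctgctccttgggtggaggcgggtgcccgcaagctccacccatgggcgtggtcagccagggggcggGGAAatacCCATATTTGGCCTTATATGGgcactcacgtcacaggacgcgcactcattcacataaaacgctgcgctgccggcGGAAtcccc
Dusp6 held 6 cores and Dusp5 held 3. A core was present in 93.4% of 32851 promoter windows of the same length, with a median of 3, and 18.0% of windows had 5 or more. Dusp5 held 2 adjacent CArG boxes, CCATATTTGG at 82 to 73 bases and CCTTATATGG at 72 to 63 bases before the start. A CArG box was found in 1.47% of all windows and 2 or more in 0.0183%. The longer ETS motif CCGGAA (12.0% of windows) and the AP-1 motif TGANTCA (6.75% of windows) were in 0 of the 8 windows. A match of letters is a description and does not show binding.

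For the Sprouty genes, the signals of Spry2 were lower in CD109-/- tumours on average by both probes, and Spry4 showed almost no mean difference. Spry2, which restrains FGF-driven branching in the mouse lung, gave -3.06 and -2.96 by probe A_51_P445153 in CD109-/- tumours, against -2.72 and -2.34 in CD109+/+ tumours. These groups did not overlap, and the difference was -0.48 ± 0.26 (limma's adjusted p = 0.782). Probe A_52_P368532, which stands for Spry2 in the fit by gene, had 1.37 and 2.18 in CD109-/- tumours, against 2.03 and 2.60 in CD109+/+ tumours. It gave a similar difference of -0.54 ± 0.38 (adjusted p = 0.830 in limma), but here CD109-/- replicate 2 lay above CD109+/+ replicate 1. Leaving out CD109-/- replicate 1 gave -0.13 for that probe, and leaving out CD109-/- replicate 2 gave -0.94. Spry1, a Sprouty known for limiting receptor tyrosine kinase signalling in the developing mouse kidney, had 3.30 and 3.45 in CD109-/- tumours, against 3.37 and 3.76 in CD109+/+ tumours. Only CD109+/+ replicate 2 stood above the rest, and the difference was -0.19 ± 0.26, or 0.01 without that array. Spry4, another feedback inhibitor of the family, had -0.88 and -1.68 in CD109-/- tumours, against -1.56 and -0.98 in CD109+/+ tumours. Each genotype held a high and a low array, and the difference was -0.01 ± 0.38 (95% interval -0.99 to 0.97).

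Of the SPRED genes, Spred2 had non-overlapping genotypes and Spred1 did not. Spred2 had -0.47 and -0.42 in CD109-/- tumours by probe A_55_P2025840, which stands for it in the fit by gene, against -0.16 and -0.26 in CD109+/+ tumours. The CD109-/- arrays were lower by a gap of 0.16, wider than the span within either genotype (0.05 in CD109-/- and 0.09 in CD109+/+). The difference was -0.23 ± 0.23 with an adjusted p of 0.874 in limma. Its other probe A_51_P499683 had -3.39 and -3.40 in CD109-/- tumours, against -3.37 and -3.22 in CD109+/+ tumours, and the gap there was only 0.02. That probe's difference of -0.10 ± 0.23 was smaller than its error. Spred1, the gene mutated in the human condition Legius syndrome, had 3.23 and 3.69 by probe A_51_P119857 in CD109-/- tumours, against 3.49 and 3.57 in CD109+/+ tumours. Its second probe, A_52_P637689, had -0.55 and 0.57 in CD109-/- tumours, against 0.08 and 0.28 in CD109+/+ tumours. With both probes the male CD109-/- sample was the lowest of the 4 and the female CD109-/- sample the highest. The differences were -0.07 ± 0.27 and -0.17 ± 0.42. The window before the start of Spred2 (chr11:19924192-19924441, plus strand, GRCm38.p6, GGAA and TTCC in capitals) is printed because it held 7 cores, the highest count among the 8 windows searched.
Spred2: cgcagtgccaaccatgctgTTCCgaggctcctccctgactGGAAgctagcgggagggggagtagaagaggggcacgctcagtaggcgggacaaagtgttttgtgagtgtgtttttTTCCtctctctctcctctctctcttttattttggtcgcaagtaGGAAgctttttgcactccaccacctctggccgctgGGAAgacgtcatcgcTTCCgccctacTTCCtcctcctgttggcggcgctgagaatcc
The other windows held 4 cores in Spred1, 3 in Spry2, 1 in Spry1, and 0 and 4 in the windows of Etv5. No reading of promoter activity was made on these arrays.

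The PEA3 factors lay at opposite ends of the range of differences. Etv4 had 0.18 and 0.24 in CD109-/- tumours, against 0.59 and 1.05 in CD109+/+ tumours. Both CD109-/- values were lower, with the largest gap between genotypes among the 13 probes (0.35), and the CD109-/- arrays were only 0.06 apart. The difference of -0.61 ± 0.27 (95% interval -1.30 to 0.07) corresponds to 1.53-fold higher signal in CD109+/+ tumours, and was -0.38 without CD109+/+ replicate 2. Its unadjusted p of 0.0706 was the lowest among the members and its adjusted p was 0.753, both from limma. Etv5 had 5.10 and 5.65 in CD109-/- tumours, against 5.14 and 5.01 in CD109+/+ tumours. Here CD109-/- replicate 2 was the highest array, and CD109-/- replicate 1 lay between the CD109+/+ arrays. The difference of 0.30 ± 0.29 (limma's adjusted p = 0.870) became 0.58 when CD109-/- replicate 1 was left out, and 0.03 when CD109-/- replicate 2 was. The difference between these genes' responses was not tested.

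The intervals set what could be seen at this size. Of 13 probes, 6 had an interval lying wholly within a 2-fold difference in either direction, while the others reached past 2-fold on at least 1 side. The median SE of the members was 0.27, close to the 0.28 of all probes. For 6 probes the difference was smaller than its own SE. Spans between replicates reached 1.12 in CD109-/- tumours and 0.59 in CD109+/+ tumours.

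The direction rested on particular arrays for some genes. With each array left out in turn, 6 of 10 genes kept their sign, 5 of them with lower values in CD109-/- tumours (Dusp4, Dusp6, Spry2, Spred2 and Etv4) and Etv5 with higher values. Dusp5, Spry1, Spry4 and Spred1 changed sign in at least 1 of these fits. For Dusp5 and Spry4 the male CD109-/- sample was the highest of the 4 arrays and the female CD109-/- sample the lowest. With sex from the labels as a covariate, the estimate is that of the female samples, and Dusp4 then differed by -0.79 with an unadjusted p of 0.0453 and an adjusted p of 0.575 in limma. In that fit 3046 of the 35776 probes tested had an unadjusted p under 0.05 in limma, in either direction. Sex and replicate 1 cannot be told apart within CD109-/- tumours. Centred on each gene's own mean, the median over the members was -0.13 and -0.15 on the CD109-/- arrays, against -0.01 and 0.28 on the CD109+/+ arrays. CD109+/+ replicate 2 held 9 of the 10 members above their own mean, and without that array the median difference of the members was -0.11, against -0.21 with all arrays. For 4 of 13 probes (Spry1, both of Spred1 and A_52_P368532 of Spry2) both replicate 1 arrays lay below both replicate 2 arrays, whatever the genotype, and for 0 of 13 above. Of all probes 19.3% lay below in this way and 21.6% above.

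**Figure D2:**
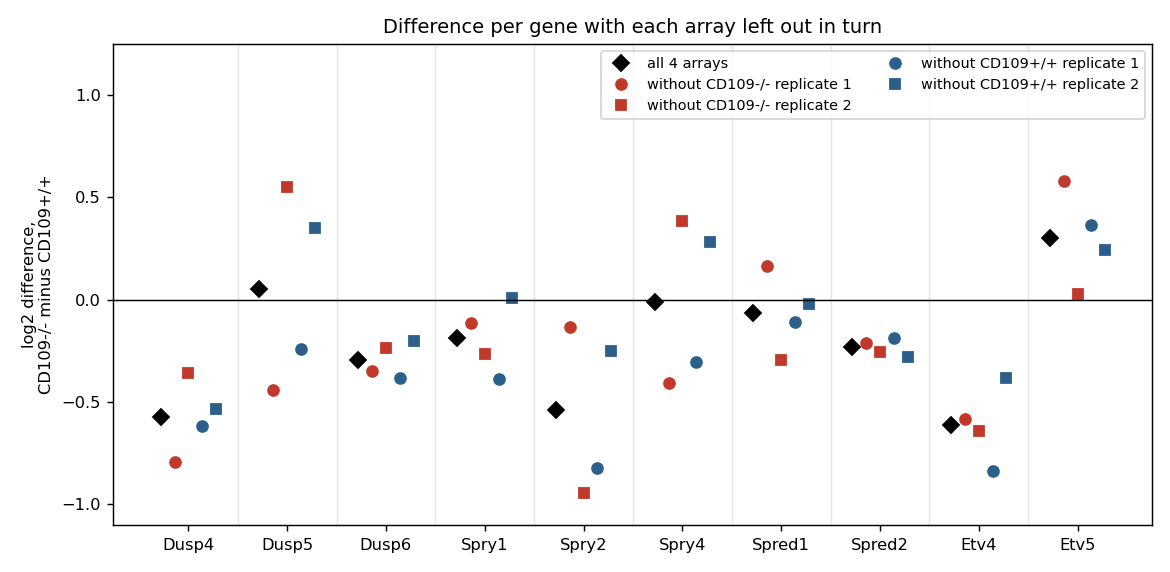
Difference CD109-/- minus CD109+/+ per gene with all arrays (black) and with each array left out in turn (red for a CD109-/- array left out, blue for CD109+/+; circles replicate 1, squares replicate 2), log2 scale. Spred2 and Dusp6 stay within a narrow band below 0, and Dusp5 runs from -0.44 to 0.55.

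The rest of the pathway was read from 4 lists of genes that hold none of the members. Adjusted p-values of list genes are over all tested genes, and those of member probes above over all tested probes. The median difference of the 10 members was -0.21, against 0.01 over all tested genes, and 4 of 10 members lay between the 25th and 75th percentiles of all genes (-0.23 to 0.27). The cascade itself, covering RAS, RAF, MEK, ERK, adaptors and scaffolds, had a median of 0.04 over 24 measured genes. None of its genes had an unadjusted p under 0.05 in limma, against 7.49% of all genes. Genotypes did not overlap for 6 higher and 3 lower in CD109-/- tumours, close to the 20.8% and 17.4% of all genes. Map2k1, which encodes MEK1, had 2.47 and 1.69 in CD109-/- tumours, against 1.65 and 1.62 in CD109+/+ tumours. Its difference was 0.45 ± 0.33 (limma's adjusted p = 0.818), with CD109-/- replicate 1 standing above the other arrays, and 0.26 by its other probe. Leaving out CD109-/- replicate 1 gave 0.055 for Map2k1, and leaving out CD109-/- replicate 2 gave 0.84.

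The 18 measured genes among 20 other negative regulators had a median of -0.15, with 12 lower in value and 6 higher in CD109-/- tumours. Genotypes did not overlap for 5 lower and 1 higher, against 17.4% and 20.8% of all genes. Erf, an ETS repressor that ERK phosphorylates and exports from the nucleus, had 2.40 and 2.13 in CD109-/- tumours, against 2.92 and 2.83 in CD109+/+ tumours (difference -0.61 ± 0.23, limma's unadjusted p = 0.0476, adjusted p = 0.659). Rasal3, a RAS GTPase-activating protein of blood cells, had -2.29 and -2.39 in CD109-/- tumours, against -3.59 and -3.25 in CD109+/+ tumours. Its difference of 1.08 ± 0.24 had an unadjusted p of 0.00767 and an adjusted p of 0.489 in limma, and was 0.59 with normexp background correction.

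Early response and other ERK-induced genes had a median of -0.10 over 26 measured genes, 11 higher and 15 lower in value in CD109-/- tumours. Of these genes 0 had an unadjusted p under 0.05 in limma, against 7.49% of all genes. Genotypes did not overlap for 4 higher and 5 lower, against 20.8% and 17.4% of all genes. Egr1, an early response transcription factor, had 1.96 and 2.39 in CD109-/- tumours, against 2.75 and 2.76 in CD109+/+ tumours (difference -0.58 ± 0.25, and -0.36 without CD109-/- replicate 1). Its relative Egr3 had a difference of 0.87 ± 0.46, which was 0.15 with normexp, 0.31 without CD109+/+ replicate 2 and 1.43 without CD109+/+ replicate 1. Ier5, another early response gene, had 0.51 ± 0.24, and 0.32 without CD109+/+ replicate 2. The remaining ETS family had a median of 0.05 over 20 of 22 genes, with 8 non-overlapping higher and 1 lower in CD109-/- tumours, against 20.8% and 17.4% of all genes. Spdef, the ETS factor of goblet and other secretory cells, had 1.22 and 1.56 in CD109-/- tumours, against -0.24 and -0.46 in CD109+/+ tumours. Its difference of 1.74 ± 0.25 had an unadjusted p of 0.00127 and an adjusted p of 0.426 in limma. Spi1, the ETS factor PU.1 of myeloid cells, differed by 0.75 ± 0.22 (adjusted p = 0.566 in limma), and by 0.18 with normexp. Its signals were dim, -3.88 and -4.01 in CD109-/- tumours, against -4.75 and -4.64 in CD109+/+ tumours. The lowest signal well above background lay between -5.42 and -5.12 on the 4 arrays. Elf4, known from lymphocytes, differed by 0.52 ± 0.25, and by 0.34 without CD109+/+ replicate 2. Over these 4 lists 0 genes passed the adjusted threshold.

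**Figure D3:**
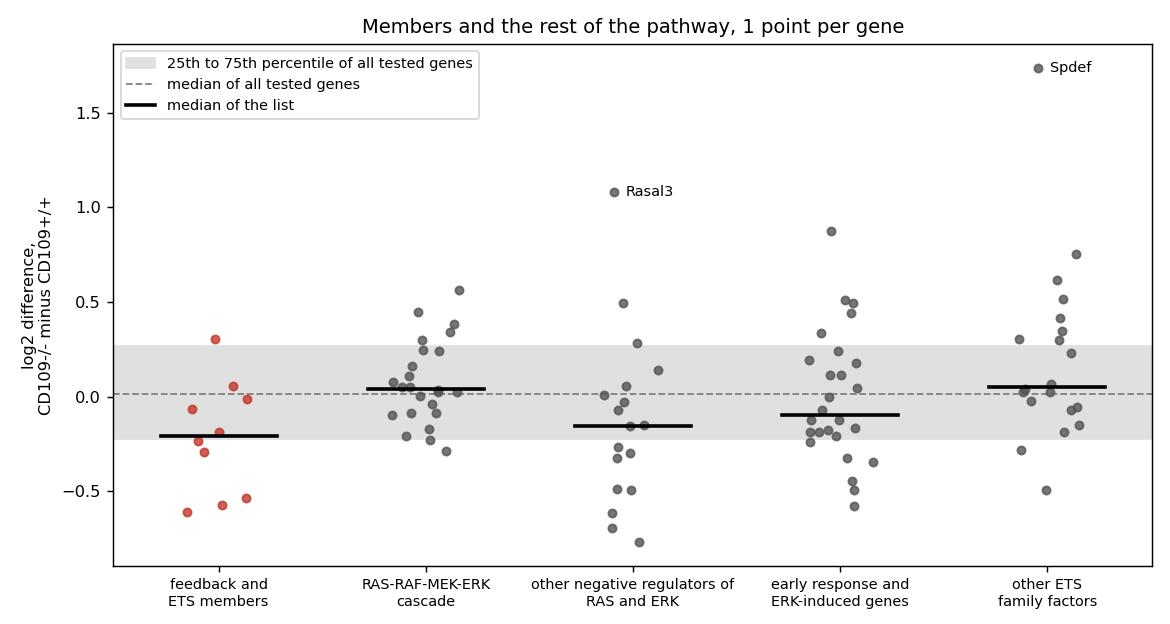
Difference CD109-/- minus CD109+/+ per gene (log2) for the 10 members (red) and the 4 lists (grey), with list medians as black bars; the band is the range between the 25th and 75th percentiles of all tested genes and the dashed line their median (0.01). The members' median is -0.21, and Spdef and Rasal3 are the highest points of their lists.

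Dusp6 was compared with the 88 measured genes of these lists by the root mean square distance of their centred values over the 4 arrays. The nearest was Trib1 (0.033), a pseudokinase that binds MEK1, and Etv1 (0.086), the remaining PEA3 factor, was among the 3 nearest. Trib1 had 3.24 and 3.19 in CD109-/- tumours, against 3.48 and 3.60 in CD109+/+ tumours, and Etv1 had 1.73 and 1.71 in CD109-/- tumours, against 1.72 and 2.02 in CD109+/+ tumours. Among the members, Spred2 was nearest to Dusp6, at 0.116, and Etv5 farthest, at 0.394. A small distance over 4 arrays is also reached by genes that hardly vary.

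Markers of the cells present were read on the same arrays. RNA of whole tumours was measured, so fewer cells of a type and less RNA per cell cannot be told apart. All 9 alveolar type 2 markers, among them Sftpc, were well above background on all arrays, and their median difference was -0.13, with 3 higher and 6 lower in value in CD109-/- tumours. Nkx2-1, the lineage factor of lung epithelium, had the lowest difference of this list, -0.61 ± 0.31, and Lamp3 the highest, 0.55 ± 0.30. The 6 epithelial markers had a median difference of -0.14 but divided by replicate number: their median level was 5.66 and 4.16 in CD109-/- tumours, against 5.74 and 4.36 in CD109+/+ tumours. Of 8 macrophage markers all were higher in value in CD109-/- tumours (median 0.74, from 0.50 to 1.27), and their summed signal relative to the 75th percentile was 157 and 112 in CD109-/- tumours, against 71.1 and 83.2 in CD109+/+ tumours. T cell markers were higher for 3 of 4 measured genes (median 0.93, from -0.11 to 1.64). Cd3d (1.64 ± 0.30) and Cd3g (1.55 ± 0.31) differed most, while Cd3e had 0.31 ± 0.26 and Cd4 had -0.11 ± 0.24. Signals in CD109+/+ tumours were low for Cd3d (-2.60 and -1.97) and Cd3g (-4.10 and -3.42). The summed signal of the T cell markers was 4.89 and 4.45 in CD109-/- tumours, against 4.33 and 3.87 in CD109+/+ tumours. Such sums are weighted towards the brightest probes, on average Lyz2 among the macrophage markers and Cd4 among the T cell markers. The part of macrophages and T cells in the values of Rasal3 and Spi1 was not tested. Fibroblast markers were higher in value for 7 of 7 (median 0.80, from 0.02 to 1.78) and endothelial for 6 of 6 (median 0.24, from 0.03 to 0.94). Genotypes did not overlap for 5 of these fibroblast and 2 of these endothelial markers, all higher, against 20.8% of all genes. Ciliated cell markers were higher in value for 4 of 4 (median 1.46, from 0.32 to 1.96), and 0 marker genes passed the adjusted threshold in limma. Genotypes overlapped for all 4 ciliated markers, whose centred medians were -0.30 and 1.61 in CD109-/- tumours, against -1.80 and 0.29 in CD109+/+ tumours, higher in replicate 2 of each genotype. Cd8a of the T cell list was not among the tested genes, and Dnah5 of the ciliated list was well above background on 3 of 4 arrays. The part of these cells in the members' values was not tested.

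**Figure D4:**
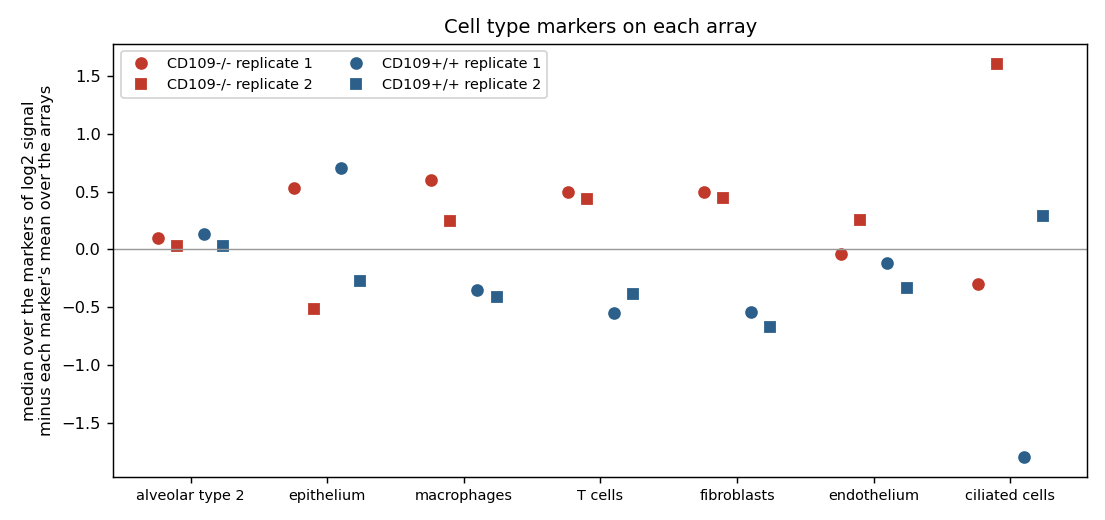
Median over the markers of each cell type of the log2 signal minus each marker's own mean over the 4 arrays, with CD109-/- arrays in red, CD109+/+ in blue, circles for replicate 1 and squares for replicate 2. Macrophage, T cell and fibroblast medians are above 0 on both CD109-/- arrays and below 0 on both CD109+/+ arrays, and epithelial and ciliated medians differ between replicates 1 and 2 within both genotypes.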

How the data were processed

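Per the file headers, the authors deposited Agilent Feature Extraction 12.1.0.3 output, with a background-subtracted and detrended processed signal as a linear intensity that was not scaled between arrays. A second deposited table holds the authors' processed intensity, each column a constant multiple (1.04 to 1.21) of that array's signal, with the rule for the constants unstated and medians of 58.8, 76.1, 59.5 and 69.2 (CD109+/+ replicates 1 and 2, CD109-/- replicates 1 and 2). It was used as an alternative.

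Control spots and outlier spots were left out, spots of 1 probe averaged, and log2 signal minus the array's 75th percentile over its probes (394, 486, 477 and 496 in the same order) was tested for probes that exceeded background clearly on both arrays of at least 1 genotype. Genes were named by accession through a RefSeq table (GRCm38.p6); 34566 of 56605 probes had a symbol. The array files use build mm9, so no array coordinates are given. A gene is its brightest tested probe. Genotypes were compared with limma 3.58.1 (lmFit, eBayes) in R 4.3.3, two-sided, on all 4 arrays with no covariate, Benjamini-Hochberg over all probes or genes, threshold 0.05; the procedure was tested on simulated data. All arrays lay on 1 slide with 1 scan date. Members, lists and naming rules were chosen with earlier results of these data known. Named were all members, Cd109, from each list the 3 non-overlapping genes with the largest moderated t, and the 3 genes most like Dusp6; a few genes so named are not reported here. Single marker genes and the genes of the closing observations were chosen after their values were seen. Alternatives were normexp (offset 50, on median signals since no mean is given), quantile or median scaling, the authors' values, other filters, a variance trend, the replicate block, sex, kept outliers, the mean of a gene's probes, each array left out and, added after seeing the data, the header's percentile.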

Additional observations from a re-analysis of the deposited data

How the results depend on the processing

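The number of member probes past the adjusted threshold stayed at 0 under the 15 alternatives run by probe, and the lowest adjusted p of any member in limma was 0.384 (without CD109-/- replicate 2). The median difference of the member genes lay between -0.34 and -0.11 with each array left out and was negative under the other alternatives too. Dusp4, Dusp6, Spry2, Spred2, Etv4 and Etv5 kept their sign under all 16 alternatives run by gene. Etv4 lay between -0.84 and -0.38 and Etv5 between 0.03 and 0.58. Not all of these alternatives could move a difference: other filters, the variance trend and the replicate block left every member's value unchanged. The mean of probes did so for genes with 1 probe, and sex as a covariate gave the value found without CD109-/- replicate 1. Signs turned for Dusp5 (-0.054 with normexp, -0.44 with sex as a covariate, -0.44 to 0.55 with each array left out), Spry4 (0.023 with median scaling, -0.41 to 0.39 with each array left out), Spred1 (0.17 with sex as a covariate, -0.30 to 0.17) and Spry1 (-0.39 to 0.0096); each main value was within its error of 0. The count of member probes not overlapping and higher, 0 in the main setting, was 1 with normexp and 1 with median scaling. It was 0 to 3 with each array left out. The lower count, 6 in the main setting, was 5 with quantile scaling, median scaling, the authors' values and the header's percentile. With each array left out it was 6 to 10. Fewer arrays make overlap less likely by construction. The shares of all probes, 16.9% higher and 20.6% lower, were taken in the main setting only. None is given for the alternatives, so their counts are not set against a background. With sex as a covariate, 1 of 13 member probes was lower at an unadjusted p under 0.05 in limma (Dusp4) and 0 were higher. In that fit, whose differences are those found without CD109-/- replicate 1, 3046 of the 35776 probes tested had such a p in either direction. In the main setting 2464 did. For the list counts that follow, the share of all genes was 7.49% in the main setting, and none is given for the alternatives. List counts at an unadjusted p under 0.05 were 0 for the cascade (1 with normexp, 1 with median scaling, 0 to 1 with each array left out), 2 for other negative regulators (1 with median scaling, 1 with the authors' values, 1 to 4), 0 for early response genes (2 with normexp, 1 with sex, 0 to 3) and 2 for other ETS factors (1 with normexp, 1 with sex, 1 to 4). Over all probes, 38 passed the adjusted threshold without CD109-/- replicate 1 and 343 without CD109-/- replicate 2, against 0 with all arrays. The cause of these changes was not tested.

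Replicate numbers are shared between genotypes, but the labels state no pairing. Deviations between replicates 1 and 2 correlated at 0.363 between genotypes over 16444 genes, with only 2 pairs. With the replicate block, member probes past the threshold stayed at 0, and 1 early response gene had an unadjusted p under 0.05 in limma. The lower non-overlapping count of 6 and the median of -0.21 could not change. The block alters neither the array values nor, in this balanced layout, the differences. All member probes were well above background on all arrays.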

Other observations

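Several ERK-induced genes differed far more between replicate numbers than between genotypes. Fosl1, the AP-1 subunit FRA-1, had log2 signals of -0.69 and -3.11 in CD109-/- replicates 1 and 2, against -0.82 and -2.72 in CD109+/+ replicates 1 and 2. Ier3, an early response gene, had 2.93 and 1.83 in CD109-/- tumours, against 3.28 and 1.48 in CD109+/+ tumours, so its difference between genotypes was -0.00 ± 0.72. Krt19, a keratin of lung epithelium, divided the same way, with 5.67 and 4.15 in CD109-/- tumours, against 5.77 and 4.51 in CD109+/+ tumours.

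Other genes of the pathway lists were divided within CD109-/- tumours, and Hmga2 within both genotypes. Hmga2, a chromatin factor found in advanced tumours of this model, had 0.21 and -3.24 in CD109-/- tumours, against -2.25 and 0.21 in CD109+/+ tumours. Il17rd, a feedback inhibitor of FGF signalling also known as Sef, had -1.66 and 0.29 in CD109-/- tumours, against -0.08 and 0.11 in CD109+/+ tumours. Myc had 1.06 and -0.81 in CD109-/- tumours, against 0.31 and 0.31 in CD109+/+ tumours. Genotypes overlapped for all 5 pathway genes named here.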
